A study of Mus musculus with 9 samples.

Results

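The nuclear genes of the respiratory chain and the ATP synthase were taken by name from the 54532 genes listed for the series: names that start with Nduf (the assembly factors Ndufaf left out), Uqcr, Cox4 to Cox8 or Atp5, together with Sdha, Sdhb, Sdhc, Sdhd and Cyc1. This gave 91 genes, 39 assigned to complex I, 4 to complex II, 9 to complex III, 21 to complex IV and 18 to complex V. Of these, 80 reached an FPKM (fragments scaled by gene length and by library size) of at least 1 in at least 3 libraries and were tested among 11727 genes. The tested genes number 37, 4, 9, 13 and 17 in complexes I to V, and the 11 genes under the filter are described at the end.

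The study exposed B.END3 cells to photodynamic intervention (PDT) with the photosensitizer porfimer sodium. B.END3 is known as a mouse brain endothelial line, and the labels give mouse as the organism with the C57BL/6 strain, whereas the growth protocol and the study's methods call the cells rat. The species of the cells was not tested, and all values are of mouse genes. Control cells (Ctrl, 3 libraries) were untreated. Ep1 cells (3 libraries) formed a monolayer, were kept with 300 μg/mL porfimer sodium for 90 min and received 635 nm laser light at 100 mW/cm2 to a dose of 10 J/cm2, and Ep2 cells (3 libraries) received 20 J/cm2 in the same way. Because Ctrl cells had neither agent nor light, the effects of porfimer sodium and of light cannot be told apart in comparisons with Ctrl, whereas Ep1 and Ep2 differ in the light dose. The time from light to lysis is not given in the sources used here, and nothing states that the libraries came from separate cultures, so the p-values measure the spread between libraries, which may be technical.

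Each library held between 16240688 and 19509225 fragments on genes. The label as endothelial cells was checked against marker genes. Of 14 endothelial markers, 4 passed the filter (Flt1, Egfl7, Ocln and Eng), and Kdr, Cldn5, Emcn and Erg stayed under 0.1 FPKM in every library, with a sum over the 14 genes of 12.8 to 13.1 FPKM for Ctrl, 12.7 to 14.4 for Ep1 and 15.9 to 16.9 for Ep2. Of 8 epithelial markers, 4 passed (Krt8, Krt18, Krt19 and Epcam), with sums of 1029 to 1081, 937 to 1041 and 1155 to 1372 FPKM. Krt8 (562 to 714 FPKM) and Krt18 (230.5 to 332) made up much of these sums. Epcam was at 0.607 to 2.03 FPKM, Cdh1 reached at most 0.103, and Krt5, Krt7 and Krt14 stayed under 0.1 in every library. The epithelial markers were thus mixed, and no other cell type is assigned. The low endothelial levels go against the label, so the cells are called B.END3 here and not endothelial. Of 8 mesenchymal markers 2 passed, with sums from 37.5 to 50.5 FPKM over all libraries, and of 6 immune markers 0 passed. The part of these marker levels in the results was not tested.

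Complexes I to IV carry electrons from NADH and succinate to oxygen in the inner mitochondrial membrane and, complex II aside, pump protons, and complex V, the ATP synthase, uses the resulting gradient to make ATP. Most subunits are encoded in the nucleus and imported, while a small core is encoded in mitochondrial DNA, so each complex other than complex II is built from both genomes. In the endothelium of brain vessels, mitochondria are known for serving the transport work of the blood-brain barrier.

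Most nuclear subunit genes decreased in the Ep2 group compared to control, and the decrease reached all 5 complexes. With the Benjamini-Hochberg adjusted p-value of limma below 0.05, 51 of the 80 tested genes fell, 2 rose (Sdhc and Uqcrfs1) and 27 were not called. Over all tested genes, 29.3% were called lower and 23.9% were called higher, so 63.8% lower among the respiratory genes stood above the background. This background was not matched for level or length. The median level was 47.9 FPKM for the 80 genes and 7.81 for all tested genes, and the median listed length was 1688 and 3916 bases. The part of the level in these shares was not tested. The median log2 fold change was -0.29 over the 80 genes and -0.03 over all tested genes. The sign was negative for 73 of the 80, and in 55 of them all Ep2 libraries lay below all Ctrl libraries, against 32.7% of all tested genes.

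The decreases were small in size. Under the fold change threshold of the study (an absolute log2 fold change above 0.6), 6 genes remained among those called lower: Ndufs6, Ndufa2, Ndufa1 and Ndufb10 of complex I, Uqcr11 of complex III and Atp5g1 of complex V. The background under this rule was 5.87% of all tested genes, so this count of 6 in 80 was near the background. It was 3 (Ndufs6, Uqcr11 and Atp5g1) without Ep2 replicate 3, 8 without Ep2 replicate 1, which added Cox5b and Ndufa3, and 4 with median centring.

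In the Ep1 group, fewer of the genes passed the test. Here 10 of 80 fell, 0 rose, and none passed the fold change threshold, while 4.97% of all tested genes were called lower and 6.32% higher. The 10 genes were Ndufa1, Ndufa6, Ndufb7, Ndufb9, Ndufb10, Ndufs7, Ndufs8, Uqcr11, Cox7c and Atp5j2. Their number is fragile, since it was 2, 1 and 6 without Ctrl replicate 1, 2 and 3, and 1, 9 and 1 without Ep1 replicate 1, 2 and 3, and it was 21 in a fit of Ctrl and Ep1 alone. The median log2 fold change was -0.11, against -0.01 over all tested genes, with a negative sign in 69 of 80. In 38 of the 80, all Ep1 libraries lay below all Ctrl libraries, against 20.5% of all tested genes.

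Between both doses, 33 of 80 were lower in Ep2 than in Ep1 and 4 were higher, beside 25.2% and 18.8% of all tested genes. The 4 higher genes were Ndufa6, Ndufv3, Cox7a1 and Cox7a2l, of which the call of Cox7a1 was lost in 4 of 6 fits that left out a replicate and in 3 other settings, and that of Cox7a2l in 1 of 6. The median log2 fold change was -0.16, against -0.01 over all tested genes, and Atp5g1 alone passed the fold change threshold. All 33 genes lower in Ep2 than in Ep1 were also called lower in Ep2 than in Ctrl. Both comparisons use the Ep2 libraries, and the share of all tested genes with both calls was not counted.

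The libraries of a group were not alike. The median difference of the 80 genes from the Ctrl mean, on the log2(FPKM + 1) scale, was -0.02, 0.03 and -0.02 in the Ctrl libraries, -0.16, -0.06 and -0.12 in Ep1, and -0.21, -0.24 and -0.38 in Ep2. Every treated library was below every Ctrl library in this median, and every Ep2 library was below every Ep1 library. Ep2 replicate 3, which is also the library with the fewest fragments, was the lowest of its group in 61 of 80 genes and lay below the Ctrl mean in 72 of them, compared with 66 in Ep2 replicate 1 and 64 in replicate 2. Without it, 47 genes fell and 3 rose in Ep2 compared with Ctrl, and the median log2 fold change was -0.23.

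**Figure D1:**
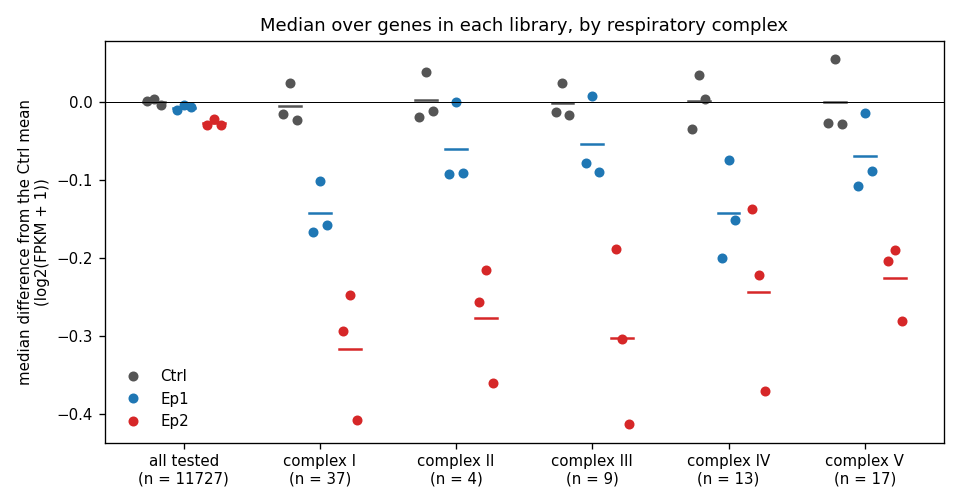
Median over the tested genes of each complex of the difference from the Ctrl mean (y axis, log2(FPKM + 1)) in each library, with all 11727 tested genes at the left. Points are libraries and bars are group means, and the Ep2 points of every complex lie below all of its Ctrl points, with Ep2 replicate 3 the lowest in each complex.

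As a share of all fragments on genes, the respiratory genes took 1.12% ± 0.016 in Ctrl (SD, n = 3 here and for the other groups), 1.04% ± 0.033 in the Ep1 group and 0.961% ± 0.040 in the Ep2 group. These shares do not overlap between Ctrl and Ep2. FPKM is itself relative to the library, and in bulk RNA less RNA per cell and fewer cells that carry it cannot be told apart.

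Summed over its genes, each complex was below Ctrl in the mean of both treated groups. Complex I, for example, held 1557 ± 30.7 FPKM in Ctrl (SD, n = 3 for each group), 1367 ± 63.4 for Ep1 and 1207 ± 86.1 for Ep2, and complex V held 1794 ± 43.9, 1693 ± 47.0 and 1535 ± 54.3. Relative to Ctrl, the summed FPKM of complex I was 77.5% in Ep2, of complex III 81.1%, of complex II 82.1%, of complex IV 84.8% and of complex V 85.6%. In Ep1, the order was complex I at 87.8%, complex IV at 89.6%, complex III at 92.2%, complex V at 94.4% and complex II at 95.6%. No test was made between the complexes, and the medians by library show ranges that overlap: in Ep2 they ran from -0.41 to -0.25 for complex I and from -0.37 to -0.14 for complex IV.

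**Figure D2:**
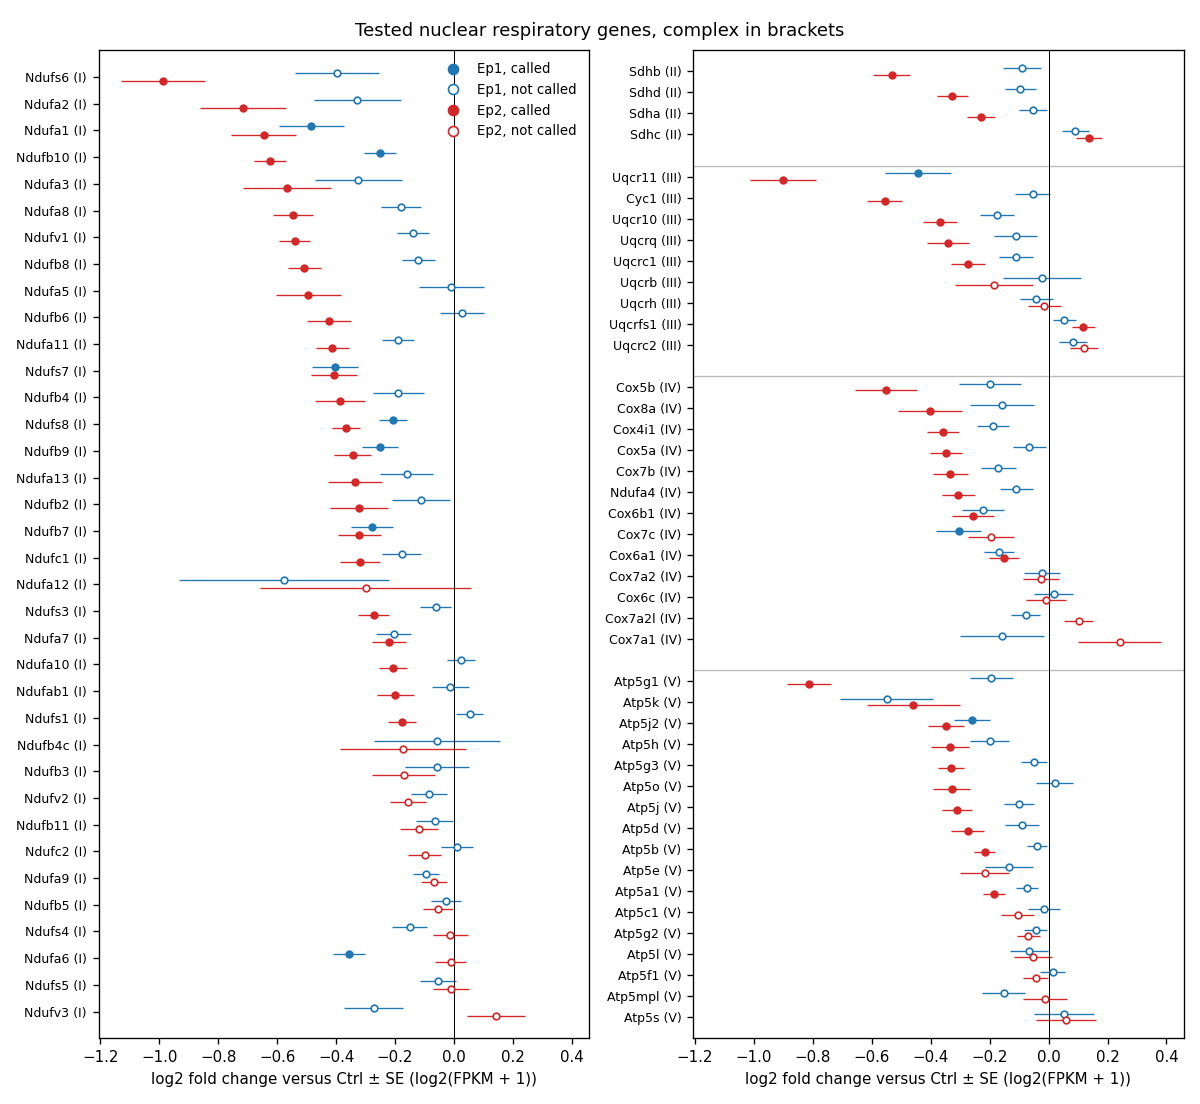
Log2 fold change versus Ctrl (x axis, log2(FPKM + 1) scale) with its standard error for the tested genes reported here, Ep1 in blue and Ep2 in red, filled where the limma adjusted p-value is below 0.05. In each complex the filled red points lie left of 0 except Sdhc and Uqcrfs1, and each complex also holds a gene near or right of 0 beside genes that fell.

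Complex I, the NADH dehydrogenase, had 25 of 37 tested genes lower in Ep2 and 0 higher, the median log2 fold change being -0.32. In Ep1, 7 of 37 were lower, with a median of -0.15. Its nuclear core subunits hold the flavin and the iron-sulfur clusters, and the accessory subunits surround this core.

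Ndufv1 carries the flavin that takes the electrons from NADH. It was at 42.5, 43.4 and 39.5 FPKM in the Ctrl libraries, 37.7, 39.1 and 36.8 in those of Ep1 and 30.2, 27.9 and 27.1 in those of Ep2. The groups Ctrl and Ep2 lie well apart, and Ep2 was also below every Ep1 library. The log2 fold change in Ep2 was -0.54 ± 0.054 (SE, limma adjusted p = 4.44e-05), and in Ep1 it was -0.14 ± 0.054 (adjusted p = 0.124).

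Further core subunits had smaller log2 fold changes in Ep2. Ndufs7 and Ndufs8, which hold clusters near the ubiquinone site, had log2 fold changes of -0.41 and -0.37 in Ep2 and were also called in Ep1 (-0.40 and -0.21). Their Ep1 calls were lost in 4 and 5 of 6 fits that left out a replicate, and in 1 and 3 other settings. Ndufs3, of the arm that joins the ubiquinone site, had -0.27, and Ndufs1, with several clusters, had -0.18. Ndufv2 had -0.16 and was not called (limma adjusted p = 0.0556).

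Among accessory subunits, Ndufs6, a zinc-binding subunit of the matrix arm, had the lowest log2 fold change of all 80 genes, and it was picked out after its values were seen. Its FPKM was 52.6, 53.2 and 51.0 in Ctrl, 37.4, 41.4 and 39.6 in Ep1, and 32.5, 26.7 and 19.9 in Ep2. The 3 groups do not overlap, and the Ep2 libraries spread widely. The log2 fold change was -0.99 ± 0.14 in Ep2 (limma adjusted p = 0.000555) and -0.40 ± 0.14 in Ep1 (adjusted p = 0.107). The gene lies on chromosome 13, from 73319838 to 73328542 on the minus strand (GRCm38).

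Ndufb10, of the membrane arm, had the smallest adjusted p-value of complex I in Ep2. It was at 70.4, 77.9 and 74.7 FPKM in the Ctrl libraries, 61.5, 65.4 and 60.02 in those of Ep1 and 47.8, 50.3 and 45.5 in those of Ep2. The libraries step down from group to group with no overlap. The log2 fold change was -0.62 ± 0.054 in Ep2 (limma adjusted p = 2.2e-05) and -0.25 ± 0.054 in Ep1 (adjusted p = 0.0227). The call in Ep1 was lost in 4 of 6 fits that left out a replicate and in 1 other setting.

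Ndufa6, an accessory subunit with an LYR motif, followed another course. It was at 28.4, 30.5 and 28.6 FPKM in the Ctrl libraries, 21.7, 23.6 and 22.3 in those of Ep1 and 30.1, 29.5 and 27.1 in those of Ep2. The Ep1 libraries lie below all others, and Ctrl and Ep2 overlap. The log2 fold change was -0.36 ± 0.054 in Ep1 (limma adjusted p = 0.00873), -0.01 ± 0.054 in Ep2 (adjusted p = 0.876) and 0.35 ± 0.054 between Ep2 and Ep1 (adjusted p = 0.000834). It stayed called in Ep1 under every alternative tried, including the omission of each replicate. Under a correction for gene length and GC content, its value in Ep2 compared with Ctrl was 0.13 (adjusted p = 0.0248).

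Ndufv3, a small subunit at the flavin site, had a log2 fold change of 0.42 ± 0.10 between Ep2 and Ep1 (limma adjusted p = 0.00846). Its FPKM was 32.5, 32.3 and 34.5 in Ctrl, 28.3, 27.2 and 26.2 in Ep1, and 44.3, 34.5 and 32.1 in Ep2. Compared with Ctrl, Ndufv3 was called neither in Ep2 (0.14 ± 0.10, adjusted p = 0.256), where the libraries overlap, nor in Ep1 (-0.27 ± 0.10, adjusted p = 0.108). Ndufa12 could not be placed, since Ctrl replicate 1 (29.7 FPKM) and Ep2 replicate 2 (24.9) stood apart from the others of their groups, at 10.4 to 15.3 FPKM over the other 7 libraries. Its coefficient of variation was 44.7% in Ctrl and 49.0% in Ep2, the highest of the tested members in both groups, where the median was 3.84% and 6.90%. Ndufb2 and Ndufb4c rest on few fragments, 57 to 127 and 7 to 17 in a library.

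Complex II, succinate dehydrogenase, is the only complex of the chain that is wholly encoded in the nucleus. In Ep2, its subunits split, with Sdha, Sdhb and Sdhd lower and Sdhc higher. In Ep1, 0 of 4 were called.

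Sdhb, the iron-sulfur subunit, was at 48.8, 52.5 and 51.9 FPKM in the Ctrl libraries, 44.7, 51.1 and 48.0 in those of Ep1 and 32.9, 37.6 and 34.6 in those of Ep2. Ep2 lies below all libraries of both other groups, which overlap each other. The log2 fold change in Ep2 was -0.53 ± 0.063 (limma adjusted p = 0.000118). Sdha, the flavoprotein that oxidizes succinate, had -0.23 ± 0.047, and Sdhd, a membrane anchor, had -0.33 ± 0.052 (adjusted p = 0.00279 and 0.000633).

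Sdhc, the partner of Sdhd in the membrane anchor, was at 29.8, 30.8 and 29.2 FPKM in the Ctrl libraries, 32.0, 30.6 and 33.2 in those of Ep1 and 32.0, 34.1 and 32.8 in those of Ep2. All Ep2 libraries lie above all Ctrl libraries by a small margin. Its log2 fold change in Ep2 was 0.14 ± 0.045 (limma adjusted p = 0.027), and the call was lost in 3 of 6 fits that left out a replicate and in 1 other setting. The subunits of the anchor thus had opposite signs in the same libraries.

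Complex III, the cytochrome bc1 complex, showed the same split. In Ep2, 5 of 9 genes fell and 1 rose, the median log2 fold change being -0.27. In Ep1, 1 of 9 was lower.

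Uqcr11, a small accessory subunit, had the lowest log2 fold change of the complex. It was at 101, 113 and 113 FPKM in the Ctrl libraries, 73.7, 86.0 and 80.1 in those of Ep1 and 65.2, 62.0 and 47.7 in those of Ep2. The 3 groups do not overlap. Its log2 fold change was -0.90 ± 0.11 in Ep2 (limma adjusted p = 0.000193) and -0.44 ± 0.11 in Ep1 (adjusted p = 0.0385), and the call in Ep1 was lost in each of the 6 fits that left out a replicate.

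Cyc1, cytochrome c1, which hands electrons to cytochrome c, was at 131, 126 and 117 FPKM in the Ctrl libraries, 117, 126 and 117 in those of Ep1 and 88.0, 87.1 and 78.1 in those of Ep2. Ctrl and Ep1 share their range, and Ep2 lies below both. Its log2 fold change was -0.56 ± 0.060 in Ep2 (limma adjusted p = 6.63e-05) and -0.05 ± 0.060 in Ep1 (adjusted p = 0.586).

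Uqcrfs1, the Rieske iron-sulfur protein of the same electron path, was at 83.4, 82.9 and 84.3 FPKM in the Ctrl libraries, 85.1, 85.8 and 89.4 in those of Ep1 and 93.3, 91.9 and 87.0 in those of Ep2. Every Ep2 library lies above every Ctrl library. Its log2 fold change in Ep2 was 0.12 ± 0.039 (limma adjusted p = 0.0304), a call that was lost in 5 of 6 fits that left out a replicate and in 3 other settings. Of the core proteins, Uqcrc1 had a log2 fold change of -0.27 and Uqcrc2 of 0.12 (adjusted p = 0.00363 and 0.0553).

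The 250 bases before the start of 3 of these genes are shown from RefSeq (GRCm38.p6, gene strand, 5′ to 3′), because Ndufs6 and Uqcr11 had the lowest log2 fold changes in Ep2 and Uqcrfs1 was 1 of the 2 that rose. Capitals mark CCGGAAG, the core letters bound by ETS factors such as GABP. The windows are chr13:73328483-73328732 (minus strand) for Ndufs6, chr10:80406822-80407071 (minus strand) for Uqcr11 and chr13:30545317-30545566 (minus strand) for Uqcrfs1.
Ndufs6: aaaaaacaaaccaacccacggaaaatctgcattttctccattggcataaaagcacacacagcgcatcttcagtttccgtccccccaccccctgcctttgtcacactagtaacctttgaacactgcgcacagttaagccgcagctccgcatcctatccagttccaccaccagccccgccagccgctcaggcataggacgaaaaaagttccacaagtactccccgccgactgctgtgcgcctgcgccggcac
Uqcr11: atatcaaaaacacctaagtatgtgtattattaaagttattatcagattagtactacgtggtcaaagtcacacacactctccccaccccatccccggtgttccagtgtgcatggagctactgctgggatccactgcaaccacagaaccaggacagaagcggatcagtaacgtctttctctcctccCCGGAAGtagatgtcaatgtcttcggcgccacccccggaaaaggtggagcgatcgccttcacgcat
Uqcrfs1: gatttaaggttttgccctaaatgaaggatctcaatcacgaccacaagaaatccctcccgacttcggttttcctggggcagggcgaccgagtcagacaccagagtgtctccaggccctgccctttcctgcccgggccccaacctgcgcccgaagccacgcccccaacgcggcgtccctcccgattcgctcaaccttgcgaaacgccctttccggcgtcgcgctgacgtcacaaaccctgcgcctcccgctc
These letters occurred in the window of Uqcr11 only.

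Motifs named in textbooks for nuclear respiratory genes were searched in such windows on both strands. Of the 91 genes, 69 had a window in the table, and 66 of these were tested. GCGCATGC, letters of the NRF1 site, occurred in 8 of 66 windows (12.1%) and in 2.26% of all 32851 windows in the table. CCGGAAG occurred in 11 of 66 (16.7%) and in 6.91% of all, and AAGATGGC, letters of the YY1 site, in 0 of 66 and in 1.56% of all. The windows end just before the start, so letters after the start were not searched. These matches are a description of letters. The median log2 fold change in Ep2 was -0.28 with GCGCATGC and -0.30 without it, and -0.27 with CCGGAAG and -0.31 without it.

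**Figure D3:**
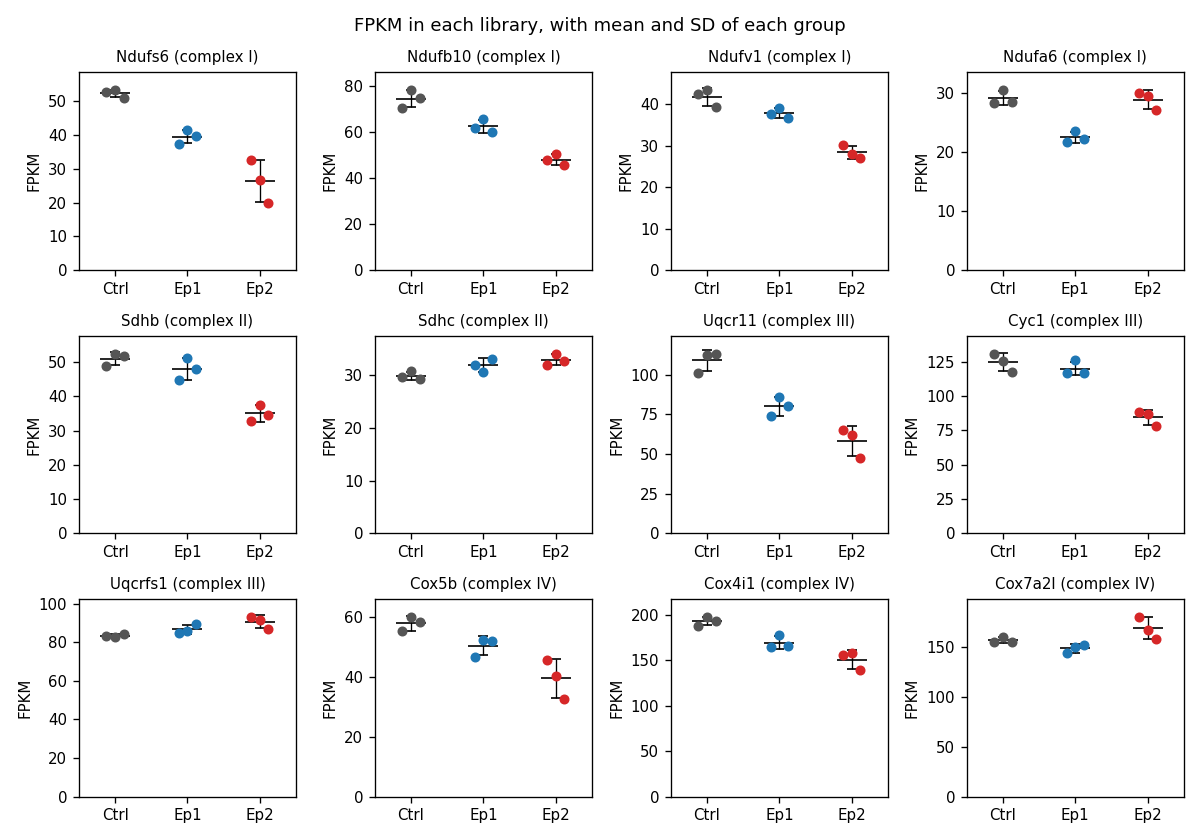
FPKM (y axis, from 0) in each library of Ctrl, Ep1 and Ep2 for 12 genes of complexes I to IV, with points for libraries and bars for the group mean and SD. Ndufs6, Ndufb10 and Uqcr11 step down from Ctrl to Ep1 to Ep2, Sdhb and Cyc1 are lower in Ep2 and overlap between Ctrl and Ep1, Ndufa6 is lower in Ep1 and overlaps between Ctrl and Ep2, and Sdhc and Uqcrfs1 are slightly higher in Ep2.

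Complex IV, cytochrome c oxidase, had 8 of 13 tested genes lower in Ep2 and 0 higher, the median log2 fold change being -0.26. In Ep1, Cox7c alone was lower. Its nuclear subunits surround a catalytic core encoded in mitochondrial DNA.

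Cox5b, a zinc-binding subunit, had the lowest log2 fold change of the complex. It was at 55.3, 60.1 and 58.4 FPKM in the Ctrl libraries, 46.7, 52.3 and 52.2 in those of Ep1 and 45.7, 40.4 and 32.7 in those of Ep2. The Ep2 libraries are all lower and spread more than those of Ctrl. Its log2 fold change in Ep2 was -0.55 ± 0.10 (limma adjusted p = 0.00208).

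Cox4i1, the largest nuclear subunit of the enzyme, was at 188, 198 and 194 FPKM in the Ctrl libraries, 165, 178 and 166 in those of Ep1 and 156, 158 and 139 in those of Ep2. The 3 groups do not overlap. The fitted log2 fold change was -0.36 ± 0.055 in Ep2 (limma adjusted p = 0.000528) and -0.19 ± 0.055 in Ep1 (adjusted p = 0.056). Cox5a, which sits beside Cox5b in the enzyme, had -0.35 ± 0.055 in Ep2 (adjusted p = 0.000613).

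Cox8a, at 424, 437 and 377 FPKM in Ctrl and 360, 314 and 267 in Ep2, was the most abundant subunit of complex IV and decreased in Ep2 by 0.40 on the log2 scale (SE 0.11, limma adjusted p = 0.012). Cox6a1 and Cox6b1 had log2 fold changes of -0.15 and -0.26 in Ep2, both called, but the call of Cox6a1 was lost in 4 of 6 fits that left out a replicate and in 5 other settings, among them a correction for gene length and GC content, where its value was 0.000153, and that of Cox6b1 was lost in 1 of the 6. Ndufa4, once counted with complex I and placed here in complex IV, had -0.31 ± 0.055 (adjusted p = 0.00128).

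The Cox7a genes, which encode alternative or related subunits, were not called in Ep2 compared with Ctrl. Cox7a2l is known as a factor that can join complex III to complex IV, which was not tested in these cells. Its FPKM was 155, 160 and 155 in Ctrl, 144, 150 and 152 in Ep1, and 180, 167 and 158 in Ep2. Ep2 lies above Ep1 with no overlap (log2 fold change 0.18 ± 0.050, limma adjusted p = 0.0159), and it overlaps Ctrl (0.10 ± 0.050, adjusted p = 0.113). Cox7a2, the main form, had -0.03 ± 0.062 in Ep2. Cox7a1, the form known from heart and muscle, had only 23 to 49 fragments in a library and a log2 fold change of 0.24 ± 0.14 in Ep2 (adjusted p = 0.185). Its value between Ep2 and Ep1 was 0.40 ± 0.14 (adjusted p = 0.0476), with libraries that overlap.

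Complex V, the ATP synthase, had 10 of 17 tested genes lower in Ep2 and 0 higher, the median log2 fold change being -0.22. In Ep1, 1 of 17 was lower. Of the 5 subunits of the catalytic F1 head, Atp5a1, Atp5b and Atp5d fell in Ep2, and the log2 fold changes of all 5 were negative, from -0.28 to -0.11.

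Atp5b, the catalytic beta subunit and the most abundant of the 80 genes (mean over the libraries 367 FPKM), was at 390, 395 and 380 FPKM in the Ctrl libraries, 373, 384 and 376 in those of Ep1 and 334, 340.0 and 327 in those of Ep2. Ep2 lies below the other groups, which overlap. The fitted log2 fold change in Ep2 was -0.22 ± 0.034 (limma adjusted p = 0.000609). Atp5a1, the alpha subunit, had -0.19 ± 0.037 (adjusted p = 0.00242), and Atp5c1, the gamma subunit of the rotor, had -0.11 ± 0.055 and was not called (adjusted p = 0.137).

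Atp5g1, Atp5g2 and Atp5g3 encode the same mature protein, subunit c of the proton-driven ring, and differ in the import sequence that is cut off. Atp5g1 was at 36.1, 37.2 and 32.6 FPKM in the Ctrl libraries, 29.2, 31.6 and 31.3 in those of Ep1 and 19.5, 21.7 and 17.9 in those of Ep2. The groups do not overlap, and the step from Ep1 to Ep2 is the larger. The fitted log2 fold change was -0.81 ± 0.074 in Ep2 (limma adjusted p = 2.77e-05), -0.19 ± 0.074 in Ep1 (adjusted p = 0.117) and -0.62 ± 0.074 between Ep2 and Ep1 (adjusted p = 0.000185).

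Atp5g3, the most abundant of these genes, was at 218, 216 and 210.5 FPKM in the Ctrl libraries, 204, 216 and 201 in those of Ep1 and 174, 175 and 162 in those of Ep2, with a log2 fold change of -0.33 ± 0.044 in Ep2 (limma adjusted p = 0.000224). Atp5g2 was at 139, 143 and 140 FPKM in the Ctrl libraries, 132, 143 and 135 in those of Ep1 and 132, 134 and 136 in those of Ep2, with -0.07 ± 0.039 (adjusted p = 0.164). Ep2 libraries of Atp5g3 are well below Ctrl, and those of Atp5g2 are below Ctrl by a margin that did not pass the test.

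The makeup of the subunit c transcripts in Ep2 lay apart from that in Ctrl. Atp5g1 held 9.03% ± 0.458 of their summed FPKM in Ctrl (SD, n = 3 for each group), 8.20% ± 0.283 in the Ep1 group and 6.07% ± 0.448 in the Ep2 group. Atp5g2 held 36.0% ± 0.630, 36.4% ± 0.357 and 41.3% ± 1.38, and Atp5g3 held 55.0% ± 0.524, 55.4% ± 0.621 and 52.6% ± 1.06. For each gene the shares of Ctrl and Ep2 do not overlap (two-sided exact permutation test, p = 0.1, the smallest p that 3 against 3 libraries allow). Those of Ctrl and Ep1 overlap (p = 0.2 for Atp5g1 and 0.5 for Atp5g2 and Atp5g3 in the same exact test). The summed FPKM was 391 ± 6.70 for Ctrl, 375 ± 13.99 for Ep1 and 324 ± 7.77 for Ep2.

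**Figure D4:**
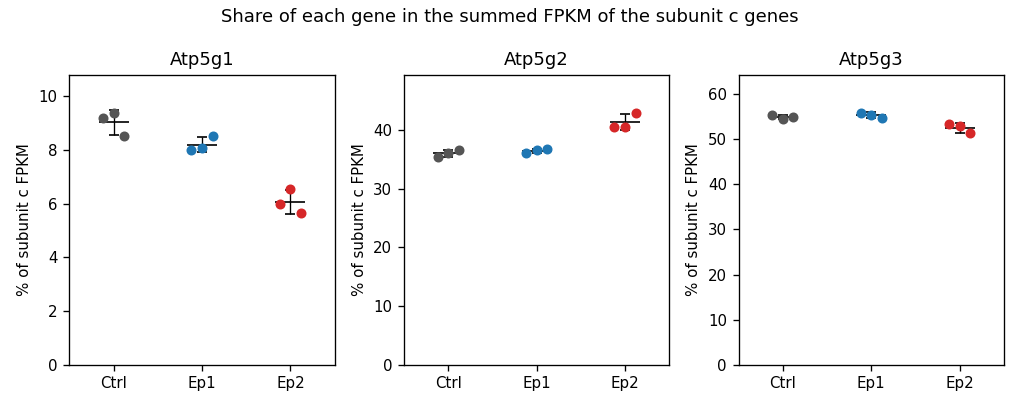
Share of Atp5g1, Atp5g2 and Atp5g3 in the summed FPKM of the subunit c genes (y axis, percent, from 0, a separate scale in each panel) in each library, with group mean and SD. From Ctrl to Ep2 the share of Atp5g1 goes from 9.03% to 6.07% and that of Atp5g2 from 36.0% to 41.3%.

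The 250 bases before each start are printed for these paralogs because they share a product and differ in course (RefSeq, GRCm38.p6, gene strand, 5′ to 3′). The windows are chr11:96075632-96075881 (minus strand) for Atp5g1, chr15:102671048-102671297 (minus strand) for Atp5g2 and chr2:73911327-73911576 (minus strand) for Atp5g3. That of Atp5g2 lies within the gene as listed for the series (102662864 to 102672352), so the RefSeq start used differs from the listed start. Capitals mark GCGCATGC on either strand, here overlapping copies.
Atp5g1: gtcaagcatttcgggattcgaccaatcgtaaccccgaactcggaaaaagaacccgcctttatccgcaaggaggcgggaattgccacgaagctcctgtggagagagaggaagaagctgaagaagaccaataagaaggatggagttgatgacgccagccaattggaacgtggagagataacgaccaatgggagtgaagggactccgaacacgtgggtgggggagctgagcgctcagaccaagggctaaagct
Atp5g2: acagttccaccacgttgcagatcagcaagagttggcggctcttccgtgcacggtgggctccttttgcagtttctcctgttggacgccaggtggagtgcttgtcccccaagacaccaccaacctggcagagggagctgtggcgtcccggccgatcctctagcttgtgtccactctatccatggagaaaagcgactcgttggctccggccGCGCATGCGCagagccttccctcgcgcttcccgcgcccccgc
Atp5g3: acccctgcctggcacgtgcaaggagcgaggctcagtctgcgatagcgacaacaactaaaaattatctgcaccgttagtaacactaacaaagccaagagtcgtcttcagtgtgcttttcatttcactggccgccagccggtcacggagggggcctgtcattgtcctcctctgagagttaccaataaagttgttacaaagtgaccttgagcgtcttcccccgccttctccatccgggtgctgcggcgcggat
None of the other motifs occurred in these windows, and the share of G and C was 53.6%, 62.8% and 54.0% in the order printed.

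In the rest of complex V, Atp5j2, a small membrane subunit, was called in both doses, with log2 fold changes of -0.26 ± 0.061 in Ep1 and -0.35 ± 0.061 in Ep2 (limma adjusted p = 0.0303 and 0.00113). Its Ep1 call was lost in 5 of 6 fits that left out a replicate and in 1 other setting. Atp5k, another membrane subunit, was at 66.8, 77.01 and 63.8 FPKM in the Ctrl libraries, 41.9, 55.0 and 44.4 in those of Ep1 and 58.9, 53.4 and 39.5 in those of Ep2. In Ep2 it fell by 0.46 on the log2 scale (adjusted p = 0.0386), a call lost in 4 of 6 fits that left out a replicate (adjusted p up to 0.115) and in 3 other settings (up to 0.0775). Its value of -0.55 ± 0.16 in Ep1 did not pass (adjusted p = 0.0604). Atp5s, a coupling factor outside the enzyme proper, was the least abundant tested gene of the complex, with 72 to 109 fragments in a library and a log2 fold change of 0.06 in Ep2.

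Across the 80 genes, 22 were called in no comparison. They include Uqcrc2, Uqcrh and Uqcrb of complex III, Cox6c and Cox7a2 of complex IV, and Atp5c1, Atp5f1 and Atp5g2 of complex V. In 8 genes the decrease was called at both doses compared with Ctrl, and these comparisons share the Ctrl libraries. The Ep1 call of each of these 8 was lost in 4 to 6 of the 6 fits that left out a replicate. The shares of all tested genes called at both doses, or in no comparison, were not counted, so the 22 and the 8 stand without a background. FPKM depends on gene length. In Ep2, 20 genes listed with under 1000 bases had a median log2 fold change of -0.31, and the other 60 had -0.29. When each library was corrected for gene length, 49 genes fell and 4 rose in Ep2, with a median of -0.22.

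Of the 13 genes encoded in mitochondrial DNA, 4 rose in Ep2 and 0 fell. The share that rose, 30.8%, is near the 23.9% of all tested genes called higher, and beside the 0 that fell stand 29.3% called lower. Their median log2 fold change was 0.05, and 5 of the 13 values were negative, while in Ep1 only mt-Nd6 was called, and it was higher. mt-Nd6, a core subunit of complex I from the light strand, was at 475, 469 and 539 FPKM in the Ctrl libraries, 636, 668 and 655 in those of Ep1 and 805, 733 and 814 in those of Ep2. These groups do not overlap, with a log2 fold change of 0.67 ± 0.062 in Ep2 (limma adjusted p = 2.97e-05). Since nothing states that strand was used in counting, reads of mt-Nd6 and of transcripts from the opposite strand cannot be told apart.

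mt-Co1, the catalytic subunit of complex IV, was at 4512, 4670.4 and 4935 FPKM in Ctrl and 5614, 6121 and 6787 in Ep2. The log2 fold change of mt-Co1 in Ep2 was 0.39 ± 0.065 (limma adjusted p = 0.000857). mt-Nd1 and mt-Nd5 had 0.20 ± 0.063 and 0.25 ± 0.048 (adjusted p = 0.025 and 0.00191), and mt-Cytb of complex III had -0.13 (adjusted p = 0.251). The other core subunits of complex IV were not called, with -0.34 ± 0.34 for mt-Co2 and 0.02 ± 0.36 for mt-Co3 (adjusted p = 0.428 and 0.968). The remaining negative values were -0.44 for mt-Atp8, -0.24 for mt-Atp6 and -0.19 for mt-Nd3, none of them called. Between both doses, 3 of the 13 were higher in Ep2 than in Ep1 and 1 was lower, with log2 fold changes from -1.11 to 0.30. Beside this, 18.8% of all tested genes were called higher and 25.2% lower.

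Other genes of the pathway were set beside the 29.3% of all tested genes called lower in Ep2 and the 23.9% called higher. Of 42 tested assembly factors, which insert cofactors and join subunits, 23 (54.8%) fell and 2 rose, with a median log2 fold change of -0.26. Of 13 genes for cytochrome c and ubiquinone synthesis, 9 (69.2%) fell and 2 rose (median -0.44), among them Cycs, the carrier between complexes III and IV, at -0.49 ± 0.064 (limma adjusted p = 0.000206). The 2 that rose were Coq10a and Coq10b. Of 13 citrate cycle genes, 8 (61.5%) fell and 0 rose (median -0.29). Of 6 genes that exchange ATP and phosphate, 2 (33.3%, near the background) fell, the nucleotide carriers Slc25a4 and Slc25a5 (median of the 6, 0.000390).

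Of 77 tested genes for mitochondrial ribosomal proteins, which serve the translation of the mitochondrial genes, 58 (75.3%) fell and 0 rose (median -0.33). Of 95 for cytosolic ribosomal proteins, 47 (49.5%) fell and 5 rose (median -0.18). The median of the nuclear respiratory genes, -0.29, lies between both, and no test was made between the lists. In Ep1, 4.97% of all tested genes were called lower and 6.32% higher. Beside this, 2 of 42 assembly factors, 1 of 13 citrate cycle genes, 2 of 77 mitochondrial and 14 of 95 cytosolic ribosomal genes fell. Of 13 carrier and ubiquinone genes 0 fell and 1 rose, 0 of 6 exchange genes were called, and of 11 regulators 2 fell and 2 rose.

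**Figure D5:**
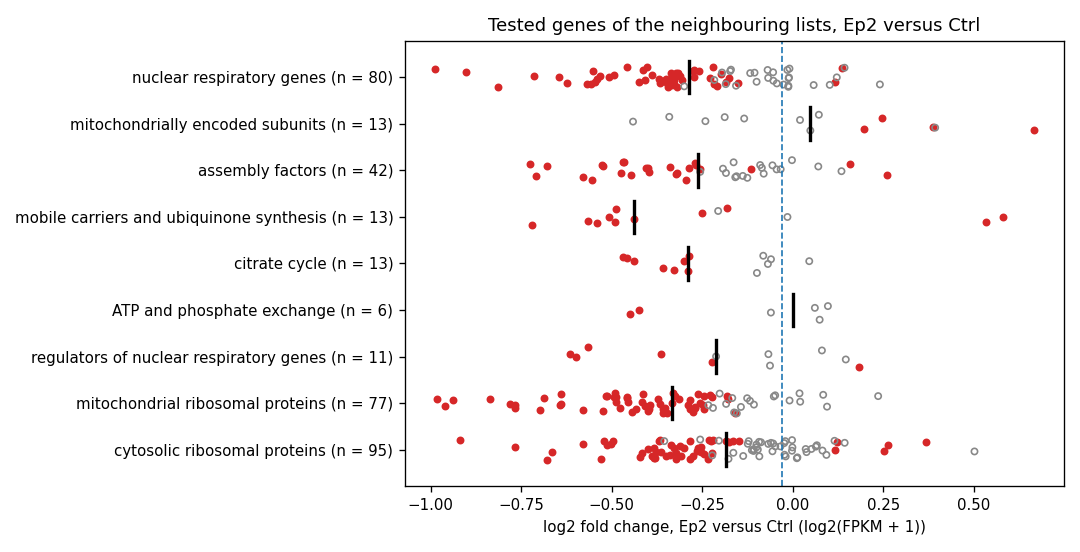
Log2 fold change in Ep2 versus Ctrl (x axis, log2(FPKM + 1) scale) of each tested gene in the nuclear respiratory list and in 8 neighbouring lists, filled where the limma adjusted p-value is below 0.05, with the list median as a black bar and the median of all tested genes as a dashed line. The mitochondrially encoded subunits and the exchange genes have medians right of the dashed line, and all other lists have medians left of it.

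Of 11 tested regulators known to act on nuclear respiratory genes or on mitochondrial transcription, 5 (45.5%) fell and 1 rose in Ep2. Esrra, a nuclear receptor of respiratory promoters, was at 10.8, 12.7 and 11.03 FPKM in the Ctrl libraries, 8.08, 8.81 and 8.44 in those of Ep1 and 8.35, 7.60 and 6.00 in those of Ep2. Both treated groups lie below Ctrl and overlap each other, with log2 fold changes of -0.40 ± 0.10 in Ep1 and -0.60 ± 0.10 in Ep2 (limma adjusted p = 0.0368 and 0.000985). Nrf1, the factor of the GCGCATGC site, was not called in Ep1 (0.08 ± 0.057) and fell in Ep2 (-0.36 ± 0.057, adjusted p = 0.000603). Ppargc1b, a coactivator, Polrmt, the mitochondrial RNA polymerase, and Tfam, which packs mitochondrial DNA, fell in Ep2 by 0.56, 0.62 and 0.22 on the log2 scale, and Gabpa, the ETS factor, rose by 0.18.

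The 11 genes under the filter held few or no fragments. Cox7b2, Cox8c and a second identifier named Atp5o were at 0 in all libraries, which allows up to 3 fragments in a library for counting error only. Cox4i2, the alternative to Cox4i1, had 0 to 2 fragments in a library, Cox6a2, the muscle form, 0 to 4, Cox6b2, the form of testis, 0 to 3, and Cox8b 0 to 3. Ndufa4l2, known as induced by low oxygen, had 0 to 2 fragments in Ctrl, 1 to 8 in Ep1 and 6 or 7 in Ep2. Ndufs6b, Cox6c2 and Ndufa11b, copies of other genes, had 0 to 12 fragments, and reads of near-identical copies can be split or shared with their parents by the counting.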

How the data were processed

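RNA was sequenced as paired-end reads from 9 libraries (Ctrl, Ep1 and Ep2, 3 each), grouped by their titles. The authors deposited FPKM per gene, that is, fragments divided by gene length and library size. Their methods name GRCm39, and the submitters' processing notes name mm8 and Bowtie 0.12.2, with no counter given in the sources used here. The listed positions of all 91 genes overlapped RefSeq GRCm38.p6 and those of 8 overlapped GENCODE M39 on GRCm39, so positions are GRCm38. The 9 single-library tables equal the joint table. FPKM multiplied by listed length gave whole multiples of a step (tolerance 0.05), which returned the fragments per gene. Listed lengths exceeded the longest GENCODE transcript for 32 of the 80 tested members.

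Values were taken as log2(FPKM + 1), which understates changes of low genes. Genes that reached 1 FPKM in 3 or more libraries were fitted in limma (3.58.1, R 4.3.3) with all 9 libraries, no covariate and eBayes with trend and robust estimation, followed by Benjamini-Hochberg adjustment within each comparison. In data simulated for Ep2 with Ctrl, log2 changes of -0.6 were called in 39 of 49 genes, -0.3 in 11 of 48, 0.3 in 13 of 50 and 0.6 in 42 of 50, and 4 of 11434 unchanged genes were called. The simulation gave all genes the same spread and changed only a few, whereas in Ep2 29.3% of tested genes were called lower and 23.9% higher. The changed genes were drawn at random from all tested genes (median 7.81 FPKM, against 47.9 for the members). These rates therefore do not give the recovery among the members. Alternatives were median centring, no filter, a filter of 5 FPKM, a replicate block, a pseudocount of 0.1, a model without the group not compared, voom on the recovered fragments, a correction for gene length, the omission of each replicate and, added after seeing the data, a correction for gene length and GC content.

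The members and lists were chosen with earlier results of these data known. Named genes were the core subunits, the paralog sets, the members with the smallest adjusted p-value per complex, comparison and direction, and those with the highest and lowest mean FPKM; others were named after their values were seen, as were the genes of the Ep1 call and those past 0.6. Motifs and windows were chosen likewise. A member is counted in the totals and is not reported here by itself. Names ending in -ps (9) were left out, of which 3 passed the filter. Python 3.11.15 was used with pandas 2.3.3, numpy 2.4.6, matplotlib 3.10.9 and scipy 1.17.1.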

Additional observations from a re-analysis of the deposited data

How the results depend on the processing

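The sign of the median log2 fold change of the members held in all 3 comparisons under every alternative: leaving out a replicate it ranged from -0.13 to -0.08 in Ep1 versus Ctrl, from -0.31 to -0.23 in Ep2 versus Ctrl and from -0.17 to -0.10 in Ep2 versus Ep1. Of the counts of members called (10, 53 and 37), that of Ep1 versus Ctrl depended most on the setting. It was 1 with no filter, where low genes enter the fit, 21 in a fit of only the groups compared and 21 with voom on the recovered fragments, and 1 to 9 when a replicate was left out. Leaving out a replicate gave 47 to 58 members in Ep2 versus Ctrl and 27 to 41 in Ep2 versus Ep1, and the other settings moved neither by more than 1.5 times. With a correction for gene length and GC content, the log2 fold change in Ep2 versus Ctrl turned to 0.000153 for Cox6a1 and to 0.13 for Ndufa6 (limma adjusted p = 0.0248). The cause of these changes was not tested.

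Libraries with the same number did not deviate together (correlations from -0.056 to 0.074 over tested genes), so the numbers give no pairing. The replicate block gave 12, 56 and 38 members called. Depth limits Ndufb2, Ndufb4c, Cox7a1 and Atp5s and the genes under the filter. For the other members not called, a small change and a limit from the spread between libraries were not told apart.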
